A study of Mus musculus with 27 samples.

Results

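CD11b+ cells of the hippocampus (HC) were compared between stressed mice given environmental enrichment and stressed mice given vehicle. The comparison was described across genes with 10 or more counts in at least 3 of the 6 HC libraries, which left 15057 of the 55421 genes in the enrichment count table. HC EE was 3 libraries from C57BJ6 mice that went through CUMS and were given environmental enrichment (EE). HC VEH was 3 libraries from C57BJ6 mice that went through CUMS and were given vehicle (VEH). CUMS, taken here as chronic unpredictable mild stress, was therefore shared by both groups, and the controls were stressed animals. The labels name no vehicle for the EE group, so enrichment and a possible lack of vehicle cannot be told apart. The 6 libraries are part of a series of 27, and the same table holds 3 EE and 3 VEH libraries from the prefrontal cortex (PFC) with the same strain and treatment labels.

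Microglia are the resident macrophages of the brain, and they survey synapses, clear debris and respond to stress hormones. CD11b is an integrin subunit encoded by Itgam, and it is carried by microglia, by macrophages at the borders of the brain, by monocytes and by neutrophils. A CD11b sort is therefore not a sort for microglia alone. Environmental enrichment is housing with more space, objects and company, and in rodents it is known for effects on hippocampal plasticity and on behaviour after stress. RNA from sorted cells was sequenced as a bulk, so that fewer cells of a type and less RNA per cell cannot be told apart in any of the values that follow.

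The labelled cell type was checked against marker genes. The 20 microglial identity genes summed to 51665, 61415 and 57634 CPM (counts scaled by TMM library size) in the HC EE libraries and to 64439, 52900.1 and 58200 CPM in the HC VEH libraries. The sums overlapped between groups, and none of the 20 was at 0 counts in any HC library. Itgam was at 475, 577 and 489.7 CPM in HC EE and at 558, 481 and 637 CPM in HC VEH. Other genes share 68.7% of the Itgam exon bases on either strand, so its level is uncertain. Neuron markers were low, with a sum of 33.5 to 46.6 CPM in HC EE and 27.5 to 51.1 CPM in HC VEH.

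The libraries held 20432175 to 21752625 counts in HC EE and 19519117 to 22409808 in HC VEH. HC VEH 3 was the shallowest of the 6. The first principal component of the 6 libraries took 42.2% of the variance and separated the groups. The second took 24.7%, and HC VEH 3 stood apart on it. HC VEH 3 also had the highest share of counts from mitochondrially encoded genes, 1.97%, against 0.555% to 0.769% in HC EE and 0.518% and 1.03% in the other HC VEH libraries. Medians of gene lists that moved by more than the SD between libraries without HC VEH 3 are given below with that value.

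No gene passed the test. With edgeR's quasi-likelihood fit of the 12 libraries of the table, 0 of 15057 genes (percent called 0) had an adjusted p under 0.05, and the smallest adjusted p was 0.0585. An unadjusted p under 0.05 was found for 1591 genes, 10.6% of those tested. Of these, 1009 were higher in EE (6.7% of genes tested) and 582 were lower (3.87%). All 3 EE libraries lay above all 3 VEH libraries for 1464 genes (9.72%) and below them for 944 genes (6.27%). The log2 fold change of EE over VEH was above 0 for 6927 genes, which is 46% of those tested, and the median over all tested genes was -0.02.

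The count of calls depended on the fit. A fit of only the 6 HC libraries called 226 genes (1.5%), of which 220 were higher in EE (1.46%) and 6 lower (0.0398%). DESeq2 on the 12 libraries called 443 genes (2.94%), of which 384 were higher (2.55%) and 59 lower (0.392%). Both of these called 194 genes, all in the same direction, which is 85.8% of the calls of the 6-library fit and 43.8% of those of DESeq2. Without HC EE 1 the 6-library fit called 61 genes, without HC EE 3 it called 101, without HC VEH 2 it called 74, and without HC VEH 3 it called 368. Calls of these fits are given below as such, and "rose" and "fell" are not used of single genes.

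**Figure D1:**
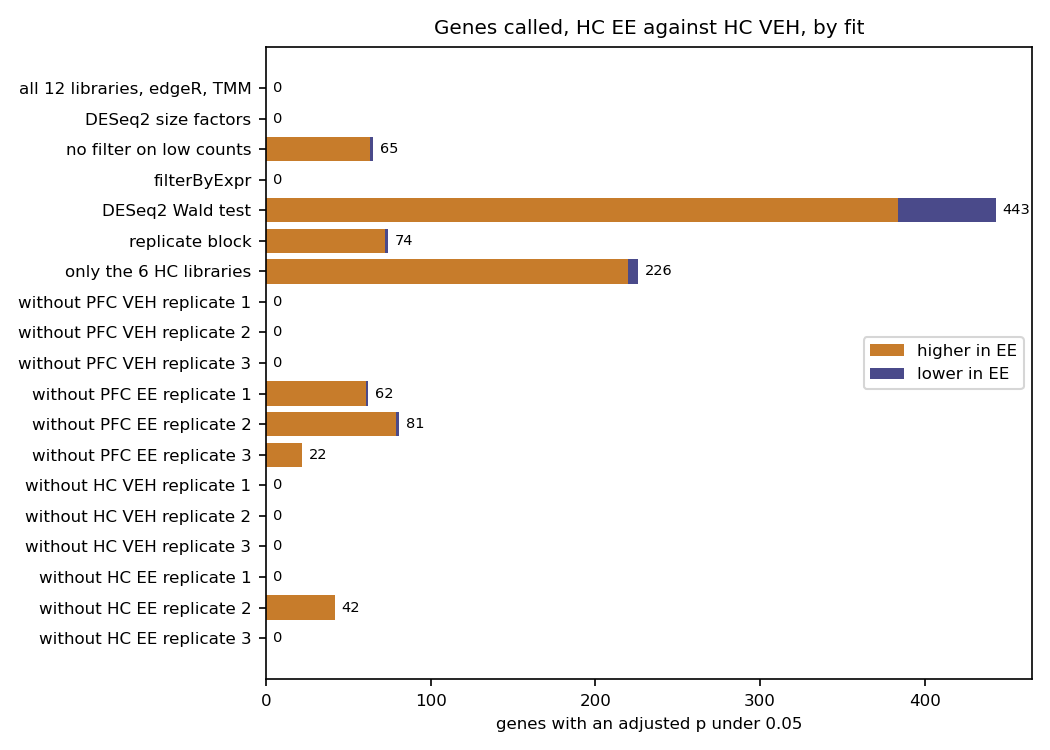
Number of genes with an adjusted p under 0.05 in HC EE against HC VEH (horizontal axis) in each fit (rows), split into genes higher and lower in EE. The fit of 12 libraries with edgeR called 0, the fit of the 6 HC libraries 226 and DESeq2 443; orange, the part higher in EE, takes up most of each bar.

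The 20 genes of smallest p with a regular symbol were higher in HC EE, in all 3 EE libraries against all 3 VEH libraries, and had adjusted p-values of 0.0585 to 0.0678 in the fit of 12 libraries. The fit of the 6 HC libraries and DESeq2 called all 20. Their log2 fold changes were above 0 in each alternative run. The edgeR fit of 12 libraries called 13 of them without HC EE 2 and 0 without any other HC library. Because the 20 were picked by p from these same libraries, their separation, signs and calls are partly built in. Tyro3, a receptor tyrosine kinase of the TAM family that takes part in the clearance of dying cells, had 8.79, 4.89 and 5.42 CPM in HC EE against 1.18, 0.835 and 1.12 CPM in HC VEH (log2 fold change 2.604 ± 0.40 SE, edgeR adjusted p = 0.0585). Sez6l2, a membrane protein of neurons, had 27.3, 19.1 and 15.4 CPM in HC EE against 5.41, 3.96 and 6.07 CPM in HC VEH (2.00 ± 0.31, edgeR adjusted p = 0.0585). The groups were apart for both genes, and the HC EE 1 library was the highest. Tyro3 lies at chr2:119797733-119818104 on the plus strand (GRCm38).

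Several of the 20 encode surface or adhesion proteins of glia and neurons. Ncam1, the neural cell adhesion molecule, had 24.1, 16.0 and 23.04 CPM in HC EE against 7.39, 5.76 and 5.36 CPM in HC VEH (log2 fold change 1.77 ± 0.29, edgeR adjusted p = 0.0585). Cntn2, a contactin of myelinated axons, had 32.1, 19.95 and 14.6 CPM in HC EE against 3.34, 3.91 and 6.28 CPM in HC VEH (2.30 ± 0.40, edgeR adjusted p = 0.0678). Both were apart between the groups, and HC EE 1 was the highest library. Efnb3, an ephrin ligand, had 18.0, 11.3 and 8.17 CPM in HC EE against 3.53, 2.90 and 2.50 CPM in HC VEH. Mdga2, an adhesion protein that binds neuroligins, was scarce, with 1.94, 2.24 and 2.22 CPM in HC EE against 0.188, 0.308 and 0.204 CPM in HC VEH. Mdga2 had 15 counts over the HC VEH libraries and, as 1 of 2 such genes among the 20, passed the count filter only through the EE libraries. The amyloid precursor-like protein gene Aplp1 had 91.9, 55.3 and 62.2 CPM in HC EE against 21.7, 15.1 and 22.3 CPM in HC VEH (1.83 ± 0.30, edgeR adjusted p = 0.0585).

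Other members of the 20 serve transport, metabolism, growth factor signalling and the cytoskeleton. Slc38a3, a glutamine transporter of astrocytes, had 26.2, 18.3 and 22.4 CPM in HC EE against 8.28, 7.78 and 6.68 CPM in HC VEH (log2 fold change 1.55 ± 0.24). Fgfr2, a fibroblast growth factor receptor, had 12.3, 9.51 and 10.04 CPM in HC EE against 3.48, 1.76 and 2.76 CPM in HC VEH (1.99 ± 0.34, edgeR adjusted p = 0.0604). For both genes the lowest EE library was above the highest VEH library. Cryab, the small heat shock protein alpha-B crystallin, had 20.1, 10.7 and 15.8 CPM in HC EE against 4.47, 2.33 and 3.78 CPM in HC VEH, with 17.0% of its exon bases shared with other genes. Syt11, a synaptotagmin, had 67.5, 60.6 and 54.0 CPM in HC EE against 36.0, 31.0 and 36.6 CPM in HC VEH (0.81 ± 0.14, edgeR adjusted p = 0.0585). The groups were apart for Cryab and Syt11. Ezr, which encodes ezrin, a linker between the membrane and actin, had 35.8, 24.5 and 35.2 CPM in HC EE against 15.6, 13.1 and 12.2 CPM in HC VEH. Sash1, a scaffold protein gene, had a log2 fold change of 0.93 ± 0.17, and Caskin2 one of 1.76 ± 0.30.

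Wfikkn2, a protease inhibitor domain protein that binds growth factors of the TGF-beta family, had 2.31, 0.792 and 1.28 CPM in HC EE and 0 counts in each HC VEH library. It passed the count filter only through the EE libraries, where it was high. Against a floor of 3 counts over the HC VEH group, it was at least 31.1-fold higher in HC EE. The floor covers counting error only.

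**Figure D2:**
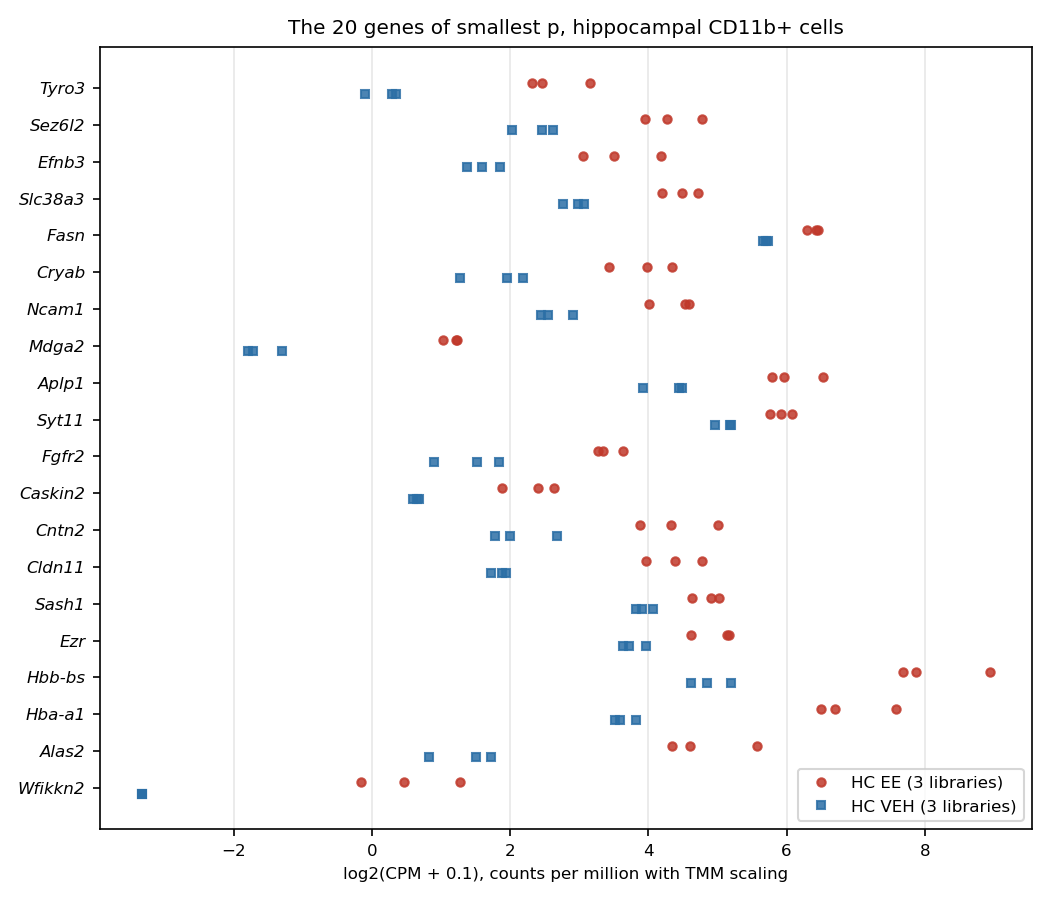
Levels of the 20 genes of smallest p (rows) on a log2(CPM + 0.1) axis, with 1 point per library: circles for the 3 HC EE libraries, squares for the 3 HC VEH libraries. In each row the circles lie to the right of the squares; Wfikkn2 sits at the left end in HC VEH, where it had 0 counts.

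Erythroid genes were among the 20, namely Hbb-bs, Hba-a1 and Alas2. Hbb-bs and Hba-a1 encode the beta and alpha chains of adult haemoglobin, and Alas2 the first enzyme of haem synthesis in red cell precursors. Their promoters are shown because the 3 genes lie on different chromosomes and were higher together in the same libraries. The sequences run from 250 bases before to 50 bases after the gene start (RefSeq, GRCm38.p6), 5′ to 3′ on the gene's strand, with matches to GATAA (or TTATC) and CACCC (or GGGTG) in capitals, the letters of GATA and KLF factor sites.
Hbb-bs, chr7:103827879-103828178, minus strand: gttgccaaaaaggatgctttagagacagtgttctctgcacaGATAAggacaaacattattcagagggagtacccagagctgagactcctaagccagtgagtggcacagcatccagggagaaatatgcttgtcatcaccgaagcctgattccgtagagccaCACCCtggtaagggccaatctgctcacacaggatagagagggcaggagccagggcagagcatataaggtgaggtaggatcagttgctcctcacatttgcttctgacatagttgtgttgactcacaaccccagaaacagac
Hba-a1, chr11:32283422-32283721, plus strand: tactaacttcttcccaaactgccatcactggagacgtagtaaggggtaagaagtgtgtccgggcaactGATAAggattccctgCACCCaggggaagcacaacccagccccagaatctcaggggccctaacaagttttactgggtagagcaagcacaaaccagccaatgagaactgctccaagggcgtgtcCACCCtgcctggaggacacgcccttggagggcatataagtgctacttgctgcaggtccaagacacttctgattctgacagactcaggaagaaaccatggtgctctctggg
Alas2, chrX:150547167-150547466, plus strand: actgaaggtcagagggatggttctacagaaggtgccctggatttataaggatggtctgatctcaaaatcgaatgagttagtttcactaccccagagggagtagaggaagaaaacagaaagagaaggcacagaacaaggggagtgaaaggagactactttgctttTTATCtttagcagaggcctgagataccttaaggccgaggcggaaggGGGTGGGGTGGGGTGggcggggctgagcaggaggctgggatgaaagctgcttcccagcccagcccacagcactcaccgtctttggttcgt

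Of the 8 erythroid markers tested, 6 had a promoter in the table, and 5 of these held both motifs. The 5 include the haemoglobin copies Hba-a1 and Hba-a2, and Hbb-bs and Hbb-bt, so they are not independent. Bpgm held neither. Among 32851 promoters of the same length, 25.4% held GATAA, 57.5% held CACCC and 12.6% held both, on either strand, and the motifs do not overlap each other. A match describes the letters and not a bound site.

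Hbb-bs had 205, 490.1 and 235 CPM in HC EE against 36.4, 24.4 and 28.8 CPM in HC VEH (log2 fold change 3.38 ± 0.55, edgeR adjusted p = 0.0678). Hba-a1 had 90.01, 191 and 104 CPM in HC EE against 14.1, 11.3 and 11.9 CPM in HC VEH (3.37 ± 0.55, edgeR adjusted p = 0.0678). Alas2 had 24.1, 47.3 and 20.1 CPM in HC EE against 2.73, 1.67 and 3.21 CPM in HC VEH (3.59 ± 0.60, edgeR adjusted p = 0.0678). HC EE 2 was the highest library for all 3 genes, and the groups were far apart. Counts between haemoglobin copies are uncertain: of the 76-base windows of the Hbb-bs transcript 64.2% also occur in Hbb-bt, and of those of Hba-a1 62.0% also occur in Hba-a2. The copies had the same direction, with a log2 fold change of 3.03 for Hbb-bt and 3.18 for Hba-a2.

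The 8 erythroid markers tested are not the whole list, because 3 of the 11 in the table, among them Epb42 and Klf1, did not pass the count filter. Of the 8, 6 reached 10 counts in all 3 VEH libraries. The 8 had a median log2 fold change of 3.10, against -0.02 over all genes tested, and 6 were called by the 6-library fit (1.46% of all genes). Their sum was 384, 861 and 426 CPM in HC EE against 81.6, 58.6 and 63.3 CPM in HC VEH. HC EE 2 was the highest library. In the PFC libraries it was 223, 1050.4 and 515 CPM in EE against 82.5, 45.8 and 72.3 CPM in VEH, and the median log2 fold change there was 3.46. Erythroid sums were higher in EE in both regions, without overlap. Red cells carry no CD11b, and the part of red cell RNA in the other differences was not tested.

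Markers of myelinating oligodendrocytes were higher in HC EE. The 12 markers summed to 831, 589 and 464 CPM in HC EE against 303, 240.0 and 311 CPM in HC VEH, and their median log2 fold change was 1.64. All 12 had a log2 fold change above 0 (46% of all genes tested), 10 had an unadjusted p under 0.05 (6.7% of all genes, higher in EE), and 5 were called by the 6-library fit (1.46%). Of the 12, 9 reached 10 counts in all 3 VEH libraries. Cldn11, a tight junction protein of myelin, had 27.3, 20.7 and 15.5 CPM in HC EE against 3.58, 3.21 and 3.72 CPM in HC VEH (2.59 ± 0.45, edgeR adjusted p = 0.0678). The groups were far apart, and HC EE 1 was the highest. Cldn11 lies at chr3:31149920-31164324 on the plus strand. In the PFC the median was 0.35, and the sums overlapped, at 276 to 510.4 CPM in EE against 257 to 397 CPM in VEH.

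Other oligodendrocyte genes are named after their values were seen. Mbp, myelin basic protein, had 187, 114 and 112 CPM in HC EE against 104, 73.1 and 91.4 CPM in HC VEH (log2 fold change 0.62 ± 0.25, edgeR adjusted p = 0.382). Pdgfra, the receptor that marks oligodendrocyte precursors, overlapped between the groups, at 1.53, 2.42 and 0.394 CPM in HC EE against 0.565, 0.835 and 0.459 CPM in HC VEH. Microglia take up myelin, and RNA taken up and RNA of other cells in the sort cannot be told apart in these values.

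Astrocyte markers, genes of the glia that take up glutamate and support synapses, were also higher in HC EE. The 12 markers summed to 1087, 753 and 1044 CPM in HC EE against 620.1, 486 and 576 CPM in HC VEH, with a median log2 fold change of 1.16. All 12 were above 0, 11 had an unadjusted p under 0.05, and 6 were called by the 6-library fit, beside 46%, 6.7% and 1.46% of all genes. Fgfr3, the member of smallest p, had 26.3, 15.1 and 28.1 CPM in HC EE against 9.46, 7.78 and 10.3 CPM in HC VEH (1.34 ± 0.27, edgeR adjusted p = 0.0768). HC EE 2 was the lowest EE library for Fgfr3 and for the sum. In the PFC the median was 0.18.

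Markers of choroid plexus and ependyma, the epithelia of the brain ventricles next to the hippocampus, had the highest median of the 40 lists and varied widely between libraries. The 12 markers summed to 2736, 773 and 1531 CPM in HC EE against 7.20, 6.82 and 314 CPM in HC VEH. HC VEH 3 stood apart from the other VEH libraries, and the sums still did not overlap. The median log2 fold change was 3.70, and 8.26 without HC VEH 3. All 12 passed the count filter in the 3 EE libraries, but only 2 of them reached 10 counts in all 3 VEH libraries, so the count and the median describe and do not support a difference. Foxj1, a transcription factor of ciliated cells, had 7.36, 2.61 and 2.90 CPM in HC EE against 1.04, 1.01 and 1.33 CPM in HC VEH (1.93 ± 0.72, edgeR adjusted p = 0.331). No member was called by the 6-library fit or by DESeq2. In the PFC the sums ran over 22.03, 1530 and 304 CPM in EE against 8.88, 890.3 and 939.6 CPM in VEH, with wide overlap.

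**Figure D3:**
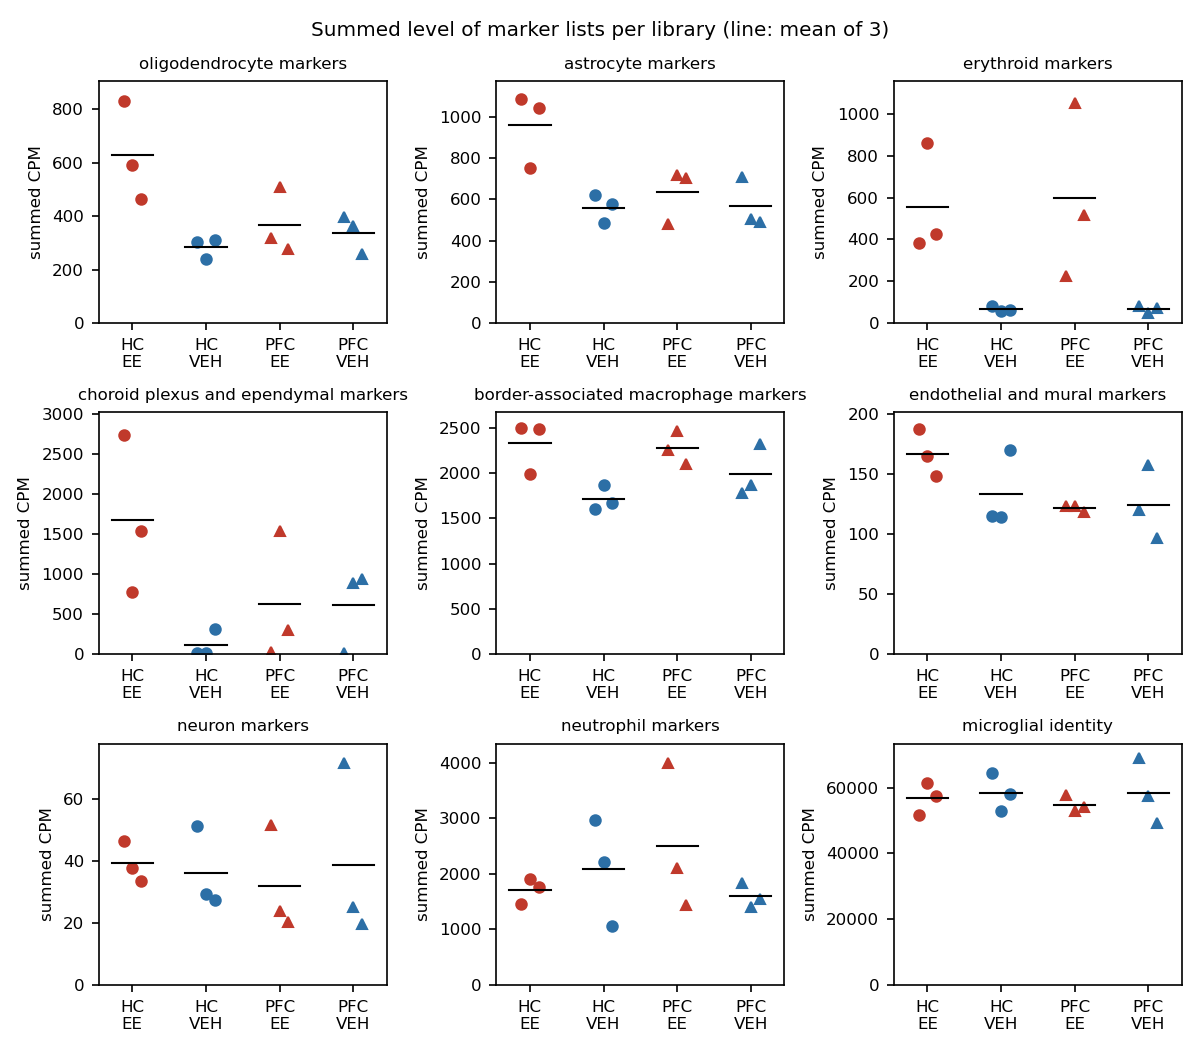
Summed CPM of 9 marker lists (panels) in each library, with HC as circles and PFC as triangles, EE left of VEH, and a line at the mean of 3 libraries. Oligodendrocyte, astrocyte, erythroid, choroid plexus and border-associated macrophage sums do not overlap between HC EE and HC VEH; of these, erythroid sums alone are also apart in the PFC.

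Border-associated macrophages live in the meninges, around vessels and in the choroid plexus, and carry CD11b. Their 12 markers summed to 2496, 1993 and 2490.1 CPM in HC EE against 1597, 1863 and 1663 CPM in HC VEH, and the median log2 fold change was 0.81. All 12 were above 0 (46% of all genes), 7 had an unadjusted p under 0.05 (6.7%), and 4 were called by the 6-library fit (1.46%). Cd163, the scavenger receptor for haemoglobin bound to haptoglobin, had 107, 79.3 and 122 CPM in HC EE against 55.0, 50.1 and 56.8 CPM in HC VEH (0.93 ± 0.19, edgeR adjusted p = 0.0768). Mrc1, the mannose receptor, named after its values were seen, had 286, 289.5 and 376 CPM in HC EE against 177, 162 and 236 CPM in HC VEH (0.73 ± 0.20, edgeR adjusted p = 0.156). HC EE 2 was the lowest EE library for Cd163, and the groups did not overlap for either gene.

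The 13 MHC class II genes, which present peptides to CD4 T cells, summed to 1714, 1775 and 1979 CPM in HC EE against 1384, 961 and 1154 CPM in HC VEH. The sums did not overlap in HC, while in the PFC they did, at 930.1 to 2514 CPM in EE against 1563 to 1778 CPM in VEH. Single members differed in direction, with a median log2 fold change of 0.21 and 9 of 13 above 0. At an unadjusted p under 0.05, 5 were higher and 2 lower (6.7% and 3.87% of all genes tested), and 5 were called as higher by the 6-library fit (1.46% of all genes). Ciita, the master regulator of the class, had 9.35, 5.64 and 10.9 CPM in HC EE against 3.11, 3.08 and 3.98 CPM in HC VEH (1.35 ± 0.45, edgeR adjusted p = 0.257). The invariant chain gene Cd74, named after its values were seen, had 581, 559 and 692 CPM in HC EE against 343, 219.6 and 278 CPM in HC VEH (1.12 ± 0.43, edgeR adjusted p = 0.373). H2-Ob, a subunit that inhibits peptide loading, also named after its values were seen, had 37.2, 43.8 and 37.4 CPM in HC EE against 48.8, 45.2 and 46.0 CPM in HC VEH. Classical class II genes are more abundant in border-associated macrophages than in resting microglia. Markers of border-associated macrophages were higher in the same libraries, and the part of those macrophages was not tested.

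Neutrophil, monocyte, endothelial, neuron and lymphocyte markers had lower medians than those of border-associated macrophages with all 6 HC libraries in. Neutrophil markers summed to 1466, 1917 and 1764 CPM in HC EE against 2975, 2217 and 1062 CPM in HC VEH, with overlap and a median log2 fold change of -0.05. S100a8, a calcium-binding protein of neutrophils, had 47.8, 149 and 83.8 CPM in HC EE against 447, 141 and 66.3 CPM in HC VEH. The monocyte list had a median of 0.39 with 9 of 12 above 0, and its member of smallest p was Ace, which encodes angiotensin-converting enzyme and is also made by choroid plexus and endothelium. Ace was apart between the groups. It had 56.2, 43.9 and 52.3 CPM in HC EE against 10.6, 14.6 and 17.1 CPM in HC VEH (1.85 ± 0.44, edgeR adjusted p = 0.137). The 12 endothelial and mural markers were all above 0, with a median of 0.46, and of 0.94 without HC VEH 3. Of the 12, 2 had an unadjusted p under 0.05 (6.7% of all genes, higher in EE), and their sums overlapped, at 148 to 187 CPM in HC EE against 114 to 170.4 CPM in HC VEH. Pdgfrb, the pericyte receptor, had a log2 fold change of 0.96 (edgeR adjusted p = 0.220). Neuron markers had a median of 0.26, with 6 of 11 above 0. Of 16 lymphocyte markers 7 were tested, and their median of 0.07 was 0.17 without HC VEH 3, -0.12 without HC VEH 2 and -0.079 without HC EE 2.

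Genes of cholesterol and fatty acid synthesis formed the metabolic list with the most members at an unadjusted p under 0.05. Of the 23 tested, 21 had a log2 fold change above 0 (46% of all genes) and 11 had an unadjusted p under 0.05, all higher in EE (6.7% of all genes). The median was 0.36, and 0.25 without HC VEH 3 and 0.43 without HC VEH 1. The 6-library fit called 2 and DESeq2 called 6, all higher in EE, beside 1.46% and 2.55% of all genes. Fasn, fatty acid synthase, had 85.7, 78.2 and 87.5 CPM in HC EE against 51.8, 53.0 and 50.5 CPM in HC VEH (0.70 ± 0.11, edgeR adjusted p = 0.0585). The spread within each group was small beside the distance between the groups. Fasn lies at chr11:120805846-120824547 on the minus strand. The sterol pathway is highly active in oligodendrocytes and astrocytes, whose markers were higher in the same libraries, and their part was not tested.

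**Figure D4:**
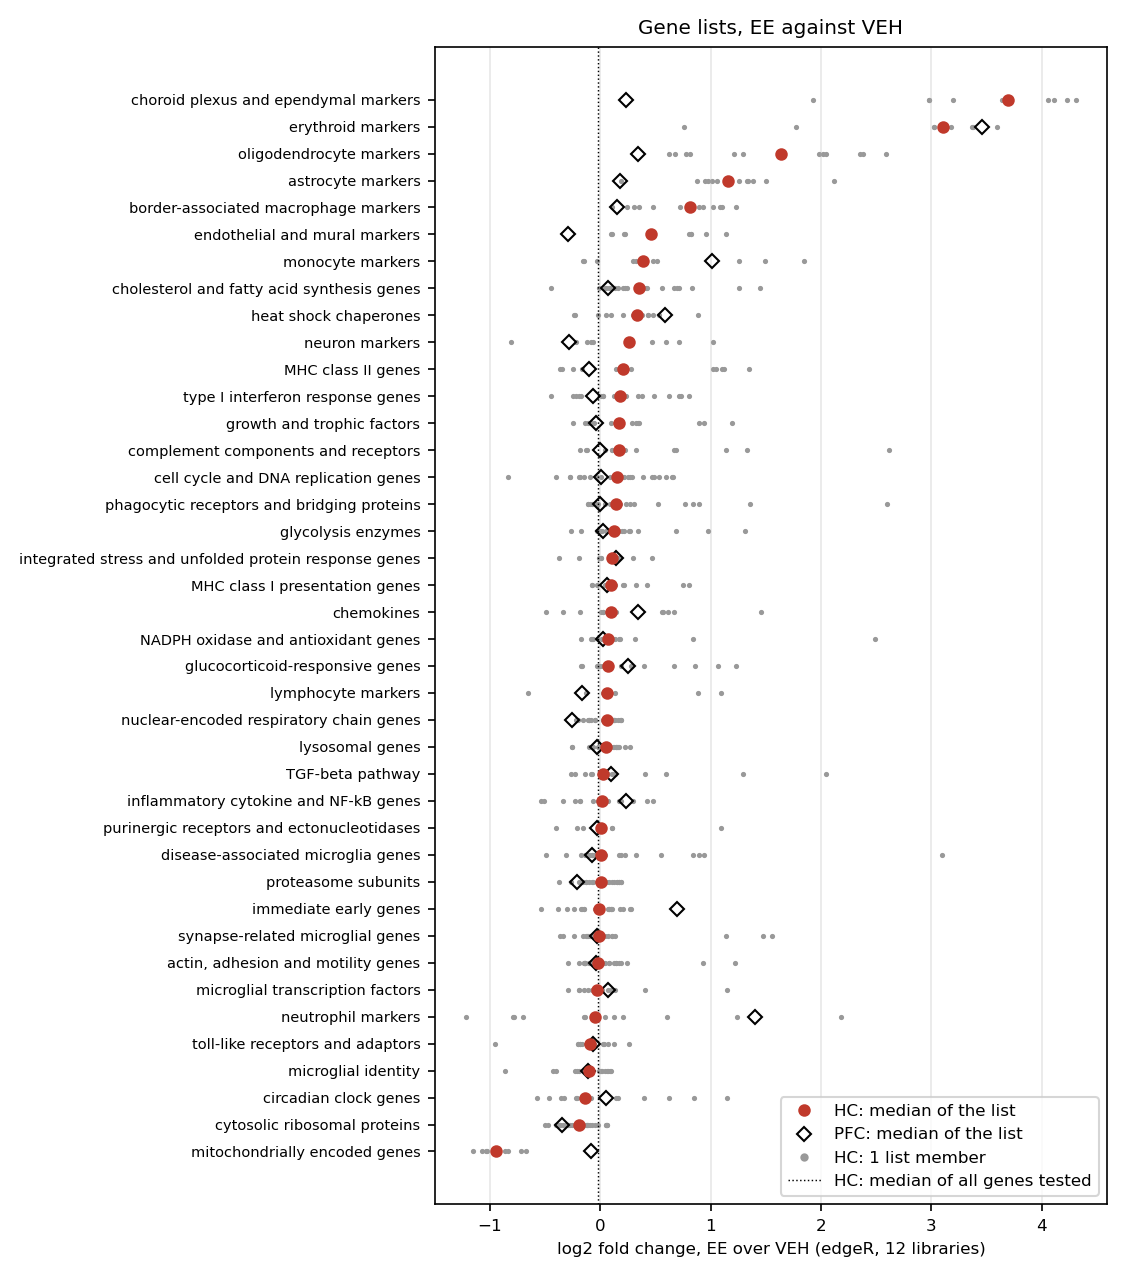
Log2 fold changes of EE over VEH (horizontal axis) for 40 gene lists (rows), with small grey dots for members in HC, red circles for the HC median and open diamonds for the PFC median. Choroid plexus, erythroid, oligodendrocyte and astrocyte lists lie furthest to the right in HC (medians 3.70, 3.10, 1.64 and 1.16), while most lists of microglial function lie near the dotted median of all genes.

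Microglial identity genes had a median near that of all genes. The 20 genes had a median log2 fold change of -0.10, with 7 above 0, and at an unadjusted p under 0.05 0 were higher and 2 lower (6.7% and 3.87% of all genes tested). Without HC VEH 1 the median was 0.061. Cx3cr1, the fractalkine receptor, had 7079, 8452 and 7804 CPM in HC EE against 8662, 7161 and 7217 CPM in HC VEH (0.02 ± 0.13, edgeR adjusted p = 0.979). Tmem119, a marker of resident microglia, had 2986, 3347 and 3502 CPM in HC EE against 3627, 3106 and 2512 CPM in HC VEH (0.09 ± 0.16, edgeR adjusted p = 0.903). The sign of both small differences turned when single libraries were left out. P2ry12, the purinergic receptor that guides microglial processes, had 2523, 3491 and 2954 CPM in HC EE against 3779, 2834 and 5210.1 CPM in HC VEH (-0.40 ± 0.20, edgeR adjusted p = 0.521). HC VEH 3 was the highest library for P2ry12. Cd33, a sialic acid receptor, was the member of smallest p, with 704, 705 and 656 CPM in HC EE against 834, 849 and 1091 CPM in HC VEH (-0.43 ± 0.13, edgeR adjusted p = 0.198). The groups were apart for Cd33. Bhlhe40, the transcription factor of smallest p, had 9.67, 8.25 and 10.3 CPM in HC EE against 5.74, 3.91 and 3.06 CPM in HC VEH (1.15 ± 0.32, edgeR adjusted p = 0.165).

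The glucocorticoid receptor gene and its response genes Fkbp5 and Per1 overlapped between the groups. Nr3c1, the glucocorticoid receptor, had 245, 319.9 and 297 CPM in HC EE against 272, 269 and 332 CPM in HC VEH. Its response gene Fkbp5, a chaperone that feeds back on the receptor, had 149, 153 and 195 CPM in HC EE against 147, 204 and 136 CPM in HC VEH (0.03 ± 0.19, edgeR adjusted p = 0.978). Per1, a clock gene that glucocorticoids induce, had 207, 175 and 255 CPM in HC EE against 206, 342 and 168 CPM in HC VEH. The 18 glucocorticoid-responsive genes had a median log2 fold change of 0.07 with 14 above 0, and 0.26 without HC VEH 2. At an unadjusted p under 0.05, 4 of the 18 were higher and 0 lower (6.7% and 3.87% of all genes), and none was called by the 6-library fit or DESeq2. Fam107a, an actin-associated gene that glucocorticoids induce, had the smallest p, with 47.1, 27.6 and 51.7 CPM in HC EE against 26.5, 20.01 and 22.9 CPM in HC VEH (0.86 ± 0.30, edgeR adjusted p = 0.287).

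Among clock genes, Hlf, a PAR bZIP output factor, was lower in HC EE, with 29.6, 30.5 and 34.0 CPM in HC EE against 47.8, 39.6 and 52.5 CPM in HC VEH (log2 fold change -0.57 ± 0.14, edgeR adjusted p = 0.117). The groups were apart for Hlf. The 18 clock genes were mixed, with a median of -0.14, 6 above 0 and 12 below. At an unadjusted p under 0.05, 3 were higher and 2 lower (6.7% and 3.87% of all genes tested). The highest log2 fold change of the list, 1.15, was that of Bhlhe40, described above. Fos, the immediate early gene, had 2372, 3507 and 3548 CPM in HC EE against 2751, 3422 and 2135 CPM in HC VEH (0.18 ± 0.28, edgeR adjusted p = 0.886). The 25 immediate early genes had a median of -0.01 with 11 above 0 in HC, beside a median of 0.70 with 25 above 0 in the PFC. Their sum was 22017, 25622 and 26533 CPM in HC EE against 24770, 30574 and 20431 CPM in HC VEH. The HC sums overlapped, and HC VEH 2 was the highest. Heat shock chaperones had a median of 0.33 with 11 of 14 above 0, led by Hsp90ab1 at 967, 940.3 and 1169 CPM in HC EE against 655, 856 and 621 CPM in HC VEH (0.53 ± 0.16, edgeR adjusted p = 0.192).

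Medians of the inflammatory lists were small, and 3 of the 4 moved with a single library left out. The 21 cytokine and NF-kB genes had a median log2 fold change of 0.02, and of -0.10 without HC VEH 3. The 16 chemokines had 0.09 (0.27 without HC VEH 2), the 23 interferon response genes 0.18 (0.30 without HC VEH 1) and the 14 toll-like receptor genes -0.09. Il1b, the cytokine interleukin 1 beta, had 68.6, 78.5 and 62.9 CPM in HC EE against 58.4, 55.8 and 36.4 CPM in HC VEH (0.48 ± 0.19, edgeR adjusted p = 0.353). Tnf, tumour necrosis factor, had 30.6, 53.7 and 40.8 CPM in HC EE against 45.8, 40.8 and 36.8 CPM in HC VEH (0.02 ± 0.35, edgeR adjusted p = 0.990). Il18, a cytokine matured by the inflammasome, was lower in HC EE at an unadjusted p of 0.00963, with 17.9, 20.6 and 13.8 CPM in HC EE against 24.8, 22.03 and 28.8 CPM in HC VEH. Il1b and Il18 were apart between the groups in opposite directions, and Tnf overlapped. Cx3cl1, the fractalkine ligand that neurons make, had 4.16, 2.61 and 2.66 CPM in HC EE against 0.988, 1.06 and 1.38 CPM in HC VEH (1.46 ± 0.40, edgeR adjusted p = 0.157).

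The 20 phagocytic receptors and bridging proteins had a median log2 fold change of 0.14. Of these, 6 had an unadjusted p under 0.05, all higher in EE and Tyro3 among them, beside 6.7% of all genes. All 3 EE libraries lay above all 3 VEH libraries for 7 of the 20, beside 9.72% of all genes. Mertk, the TAM receptor that resident microglia carry, named after its values were seen, had 1131, 1246 and 1181 CPM in HC EE against 1178, 1282 and 1277 CPM in HC VEH (-0.07 ± 0.10, edgeR adjusted p = 0.863). C4b, a complement component that astrocytes and oligodendrocytes also make, had 90.8, 97.2 and 99.0 CPM in HC EE against 44.4, 33.6 and 36.0 CPM in HC VEH (1.33 ± 0.34, edgeR adjusted p = 0.156). The groups overlapped for Mertk and were apart for C4b. Apoe, the lipid carrier, had 2413, 1734 and 2641 CPM in HC EE against 1202, 956 and 1487 CPM in HC VEH (0.90 ± 0.21, edgeR adjusted p = 0.115). Both C4b and Apoe were called by the 6-library fit, with adjusted p-values of 0.00164 and 0.0397. Trem2, the lipid receptor that microglia need for the disease-associated state, had 1122, 1198 and 1163 CPM in HC EE against 1445, 1219.7 and 1049.7 CPM in HC VEH (-0.09 ± 0.16, edgeR adjusted p = 0.903). The 22 genes of that state had a median of 0.01.

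Trophic, adhesion and redox genes are described by single members. Igf1, a growth factor, had 10.5, 8.67 and 12.3 CPM in HC EE against 7.34, 4.40 and 12.96 CPM in HC VEH (log2 fold change 0.35 ± 0.35, edgeR adjusted p = 0.806). Of 22 growth and trophic factors 16 were tested, and Bdnf and Ntf3 were among those that did not pass the count filter. An unadjusted p under 0.05 was found for 3 of the 16, all higher in EE, beside 6.7% of all genes. Apoe, described above, had the smallest p of the 16. Il33, an alarmin made by astrocytes and oligodendrocytes that acts on microglia, had 10.6, 8.34 and 4.23 CPM in HC EE against 2.45, 1.67 and 3.78 CPM in HC VEH (1.55 ± 0.43, edgeR adjusted p = 0.166). Itgb8, the integrin subunit that activates TGF-beta, had 12.2, 6.34 and 6.84 CPM in HC EE against 1.74, 1.36 and 3.06 CPM in HC VEH (2.05 ± 0.45, edgeR adjusted p = 0.0901). The groups were apart for Il33 and Itgb8. Nqo1, a quinone reductase, had 1.67, 0.792 and 1.62 CPM in HC EE against 0.376, 0.132 and 0.204 CPM in HC VEH (2.49 ± 0.74, edgeR adjusted p = 0.182). It had 15 counts over the HC VEH libraries and passed the count filter only through the EE libraries.

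Mitochondrially encoded genes varied widely between the HC VEH libraries. Of the 15 listed 10 were tested, all 10 had a log2 fold change below 0, and their median was -0.95. Their sum was 5816, 7786 and 5578 CPM in HC EE against 10718, 5104 and 19609.9 CPM in HC VEH, so the groups overlapped. The median was -0.32 without HC VEH 3, the library with the highest sum. The 31 respiratory chain genes of the nuclear genome had a median of 0.06, and 0 had an unadjusted p under 0.05. The 23 glycolysis enzymes had a median of 0.13, and of -0.00615 without HC VEH 3. Pfkm, muscle-type phosphofructokinase, had 32.7, 21.5 and 29.2 CPM in HC EE against 17.4, 17.4 and 17.1 CPM in HC VEH (0.68 ± 0.16, edgeR adjusted p = 0.104). The 39 cytosolic ribosomal protein genes had a median of -0.19 with 4 above 0, the 26 lysosomal genes 0.05 and the 26 proteasome genes 0.01. The ribosomal sums overlapped, at 10371.5, 12418 and 11464 CPM in HC EE against 18131, 10727 and 9961 CPM in HC VEH. HC VEH 1 was the highest. With a library left out, the ribosomal median ran from -0.36 to 0.15, so its sign was not stable.

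Noncoding transcripts were lower in HC EE as a class. The 1470 tested genes of the lincRNA, antisense, processed transcript and TEC biotypes had a median log2 fold change of -0.45, and 1206 of them, 82.0%, were below 0. For protein-coding genes the median was 0.00 over 12966 genes, with 50.3% above 0. All 3 EE libraries lay below all 3 VEH libraries for 249 of the noncoding genes and above them for 23. Over all genes tested the shares were 6.27% below and 9.72% above. Leaving out any HC library in turn gave medians of -0.57 to -0.36. Their summed level was 6768, 5882 and 6047 CPM in HC EE against 6864, 8690 and 9518 CPM in HC VEH. Malat1, an abundant nuclear RNA named after its values were seen, had 1058, 1015 and 1023 CPM in HC EE against 1099, 1759 and 2106 CPM in HC VEH. The difference from HC VEH 1 was therefore small for both the sum and Malat1. Of the 1470 genes, 819 share no exon base with another gene on either strand, and their median was -0.45. In the PFC 33.4% of lincRNAs and 34.5% of antisense genes were above 0, against 19.7% and 17.9% in HC. Processed pseudogenes, outside the 1470, were above 0 for 24.8% of 270 genes in HC and 30.7% in the PFC.

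**Figure D5:**
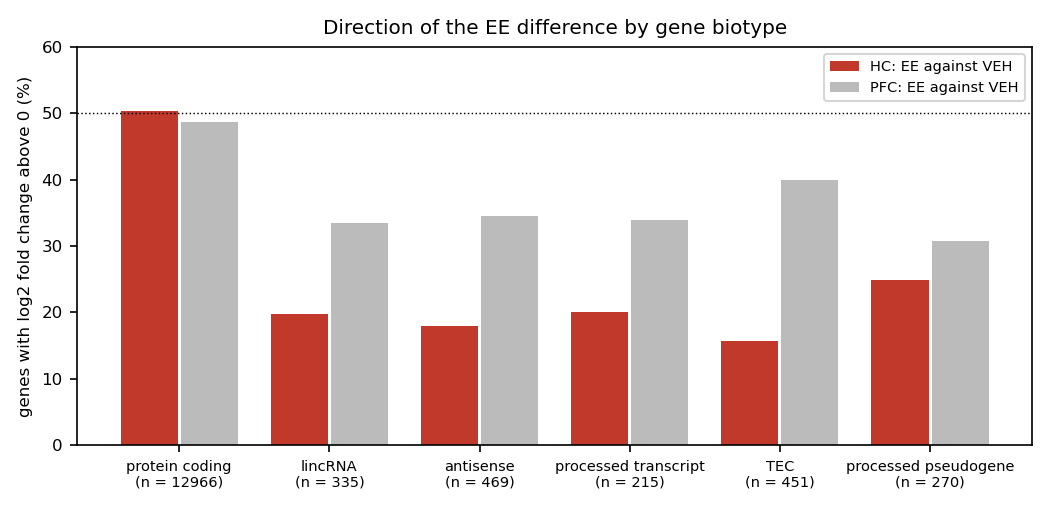
Percent of tested genes with a log2 fold change of EE over VEH above 0 (vertical axis) by annotated biotype (horizontal axis), red for HC and grey for PFC, with a dotted line where equal numbers of genes lie above and below 0. Protein-coding genes sit at 50.3% in HC, while lincRNA, antisense, processed transcript and TEC genes sit between 15.7% and 20%.

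Among genes lower in HC EE, those of small p are named after their values were seen. Olfr111, an olfactory receptor gene, had 5.92, 5.50 and 5.86 CPM in HC EE against 11.1, 16.2 and 16.0 CPM in HC VEH (log2 fold change -1.32 ± 0.26, edgeR adjusted p = 0.0768), and it was called by the 6-library fit. Elk4, an ETS factor that acts with serum response factor, had 68.8, 66.1 and 67.5 CPM in HC EE against 83.0, 93.6 and 102 CPM in HC VEH (-0.46 ± 0.10, edgeR adjusted p = 0.0901). Vamp2, a vesicle SNARE protein, had 76.0, 63.8 and 67.7 CPM in HC EE against 87.7, 103 and 87.0 CPM in HC VEH (-0.42 ± 0.11, edgeR adjusted p = 0.142). The groups were apart for all 3 genes.

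The genes called as higher in EE by the 6-library fit were mostly of low abundance in the controls. HC VEH is the low side of these calls, so a low level there is partly built in. Of the 220 called as higher in EE, 167 had a mean under 10 CPM in HC VEH, and 6 had a mean over 100 CPM. Over all tested genes 42.4% had a mean under 10 CPM in HC VEH, and 2149 of 15057 had a mean over 100 CPM. The median log2 fold change of the 220 was 1.86, and 23 of them passed the count filter only through the EE libraries. Over all 15057 genes tested, 127 did so.

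The same comparison in the PFC called 0 of 15057 genes (percent called 0), with 650 genes (4.32%) at an unadjusted p under 0.05, a smallest adjusted p of 0.369, and 16 calls by DESeq2. There 46.8% of genes had a log2 fold change above 0. The difference between the HC and PFC effects was tested in the same fit. It called 0 genes (percent called 0) with edgeR and 0 with DESeq2, and 624 genes (4.14%) had an unadjusted p under 0.05. No HC value above is therefore shown to differ from its PFC value. Of the 226 genes called by the 6-library fit, which include 6 lower in HC EE, 182 had a log2 fold change above 0 in the PFC. Of the 220 called as higher in HC EE, 18 had all 3 PFC EE libraries above all 3 PFC VEH libraries. The share of all tested genes in that order in the PFC was not counted. The 18 therefore cannot be read as agreement between the regions.

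A second table of the series held HC libraries of stressed mice (CUMS, 3 libraries) and of naive mice (NAIVE, 2 libraries). Their titles name no vehicle, and they share no library with the enrichment table. Of 13632 genes tested there 0 were called with edgeR (percent called 0) and 407 had an unadjusted p under 0.05. Of the 20 genes above, 18 were higher in CUMS than in NAIVE by log2 fold change, beside 48.1% of all genes in that table, and the lowest adjusted p of the 20 was 0.999. The number was 14 without HC CUMS 3. The 20 genes are not independent of each other, so this number describes and is not a test. Cldn11 had 28.02, 32.4 and 34.9 CPM in HC CUMS against 16.9 and 15.4 CPM in HC NAIVE (log2 fold change 0.97 ± 0.79, edgeR adjusted p = 0.999). Hbb-bs had 48.2, 74.4 and 126 CPM in HC CUMS against 69.1 and 81.9 CPM in HC NAIVE, which overlapped. For Cldn11 the CUMS libraries were all above the NAIVE libraries, and the difference did not pass the test.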

How the data were processed

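The data were counts per gene that the authors deposited, made from paired-end reads of polyA RNA libraries from sorted CD11b+ cells. Per the submitters' processing notes the tools were Trimmomatic 0.36, STAR 2.6.1b, Picard 2.17.1, featureCounts 1.5.3 and DESeq2 1.24.0, with the mm10/GRCm38 genome. The annotation, the strand setting and the handling of duplicates are not given in the sources used here. Identifiers were matched to GENCODE M21 names, and 55154 of 55421 had a symbol.

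Counts were scaled by TMM and tested with edgeR 4.0.16 (glmQLFit, robust) in R 4.3.3, with 1 mean for each of the 4 groups over 12 libraries and Benjamini-Hochberg adjustment over 15057 genes. The alternatives were DESeq2 1.42.0, DESeq2 size factors, other filters, the 6 HC libraries alone, a replicate block and leaving out each library. CPM values use effective library sizes. The labels do not say that replicates are separate animals and give no batch of dissociation, sorting or sequencing. The p-values set a difference against the spread between these samples, which may be technical. In the fit of 12 libraries that spread is estimated from the HC and PFC libraries together. Replicates differed beyond sampling noise (chi-square per degree of freedom 13.8 to 53.8 in HC).

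Members and the 40 lists were chosen with earlier results of these data known. Named genes were the 20 of smallest p with a regular symbol, the member of smallest p of each list, and Cx3cr1, P2ry12, Tmem119, Itgam, Il1b, Tnf, Nr3c1, Fkbp5, Per1, Fos, Igf1, Apoe and Trem2. Lists were described by counts and medians, without a test. Some genes of the lists are not reported here.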

Additional observations from a re-analysis of the deposited data

How the results depend on the processing

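In HC EE against HC VEH, where the fit of 12 libraries called 0 genes, 65 were called with no filter on low counts, 226 with only the 6 HC libraries and 443 with the DESeq2 Wald test, and 0 with DESeq2 size factors or filterByExpr. Leaving out an HC library gave 0 to 42, and leaving out a PFC library 0 to 81. In the 6-library fit leaving out a library gave 61 to 368. The PFC comparison called 16 genes with DESeq2 and 0 to 3 with a library left out. The cause of these differences was not tested.

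The labels do not pair the samples. Libraries of equal number did not deviate together (r = -0.26, -0.12 and -0.07), and 0 of 6 correlated best with their own number. With the replicate block 74 genes were called, and Tnf had a log2 fold change of -0.00839.

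Of the 40 list medians, no alternative that kept all libraries moved any beyond the SD between libraries. With a library left out, the medians that moved ranged as follows. Microglial identity lay between -0.12 and 0.061, glucocorticoid-responsive genes between 0.017 and 0.26, cytokine and NF-kB genes between -0.10 and 0.084 and chemokines between 0.077 and 0.27. Interferon response genes lay between 0.085 and 0.30, complement genes between 0.10 and 0.25, glycolysis enzymes between -0.00615 and 0.22 and cholesterol and fatty acid synthesis genes between 0.25 and 0.43. Endothelial and mural markers lay between 0.19 and 0.94, choroid plexus and ependymal markers between 3.13 and 8.26, and lymphocyte markers between -0.12 and 0.17.

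Small differences that changed sign with a library left out were those of Cx3cr1 (-0.045 to 0.11), Tmem119 (-0.038 to 0.22), Tnf (-0.20 to 0.20), Nr3c1 (-0.10 to 0.088), Fkbp5 (-0.11 to 0.23), Per1 (-0.37 to 0.18) and Trem2 (-0.20 to 0.033), given as the lowest and highest log2 fold change. Nr3c1 was at 0.0034 with no filter. Depth limits genes of a few CPM in 3 libraries a group, and their errors are wide.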
